A study of Rattus norvegicus with 10 samples.

Results

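De novo lipogenesis, the making of fatty acids from acetyl-CoA, was followed here through 10 genes of rat liver: the enzymes Acly, Acaca, Acacb, Fasn, Scd, Elovl6 and Me1, the lipogenic proteins Thrsp and Pnpla3, and the transcription factor Mlxipl. The members were all probe sets (groups of short array probes for 1 transcript) that the platform's gene table assigned to 1 of these genes and to no other. They came to 18 of the 31042 non-control probe sets of the array, and 0 member probe sets were shared with another gene. Of the 18, 16 varied between livers, with an SD over the 10 livers above 0.01 log2 units, and they represented 9 genes. The 2 others, the single Acacb probe set and 1 of 3 Pnpla3 probe sets, were near-constant.

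In the study, male rats aged 13 weeks ate a diet of 30 wt% instant noodle with 26% of its energy as fat for 30 days. The seasoned diet is called the N-group (animals 1, 4, 7, 10 and 13), and the same diet without seasonings the C-group (animals 2, 5, 8, 11 and 14). Livers are named here by diet letter and animal number, so that N13 is animal 13 of the N-group. All animals were pair-fed about 60 g of food per kg of body weight and day, drank water freely and lived under 12 h of light and 12 h of dark. Both diets thus held the noodle, and by the design text they differed in the seasonings. The labels used here give neither a strain nor the hour of sampling. Each liver had 1 array, made from 100 ng of total RNA. The extraction text speaks of brain, whereas the samples are labelled liver. Of 9 measured hepatocyte markers, 0 lay under the array median of 6.48 on the log2 scale, and albumin averaged 14.34, while 5 of 6 measured brain markers lay under it.

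The pathway runs from citrate to finished fatty acids. Citrate exported from mitochondria is cleaved to acetyl-CoA, carboxylated to malonyl-CoA, and built by fatty acid synthase into palmitate, which is then elongated and desaturated. In liver the genes are known to be driven by insulin through SREBP-1c, encoded by Srebf1, and by sugars through ChREBP, the protein that Mlxipl encodes. Both factors act through DNA elements in promoters, often beside binding sites of the factors NF-Y and Sp1.

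Promoter sequences were available for 7 members, from RefSeq (build GRCr8), as windows of 300 bases around the annotated start. Fasn, Acaca and Elovl6 are only named here. The 250 bases upstream of the start are printed 5′ to 3′ on the gene's strand for 4 members that moved together across livers, and for Scd, which followed them less closely. Capitals mark CCAAT boxes (CCAAT, or ATTGG on the other strand), the letters NF-Y binds, and GC boxes (GGGCGG, or CCGCCC on the other strand), the letters Sp1 binds. The windows lie at chr1:161138965-161139214 (minus strand) for Thrsp, chr7:117173278-117173527 (plus strand) for Pnpla3, chr10:85963632-85963881 (minus strand) for Acly, chr12:27213661-27213910 (minus strand) for Mlxipl and chr1:253231732-253231981 (minus strand) for Scd.
Thrsp: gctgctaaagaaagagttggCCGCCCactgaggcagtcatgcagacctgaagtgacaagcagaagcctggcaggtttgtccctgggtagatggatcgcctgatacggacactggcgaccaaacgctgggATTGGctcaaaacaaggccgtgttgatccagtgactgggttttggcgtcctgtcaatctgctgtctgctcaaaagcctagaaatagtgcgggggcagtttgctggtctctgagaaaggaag
Pnpla3: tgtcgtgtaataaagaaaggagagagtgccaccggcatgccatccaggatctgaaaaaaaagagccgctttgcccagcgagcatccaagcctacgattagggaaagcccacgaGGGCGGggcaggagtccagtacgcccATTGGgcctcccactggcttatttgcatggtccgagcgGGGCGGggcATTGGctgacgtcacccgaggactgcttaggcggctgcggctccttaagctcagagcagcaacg
Acly: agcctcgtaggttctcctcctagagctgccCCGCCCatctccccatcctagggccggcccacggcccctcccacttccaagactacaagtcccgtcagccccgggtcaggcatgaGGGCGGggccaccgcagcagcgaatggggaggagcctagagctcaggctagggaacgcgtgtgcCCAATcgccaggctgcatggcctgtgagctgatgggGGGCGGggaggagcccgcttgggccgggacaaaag
Mlxipl: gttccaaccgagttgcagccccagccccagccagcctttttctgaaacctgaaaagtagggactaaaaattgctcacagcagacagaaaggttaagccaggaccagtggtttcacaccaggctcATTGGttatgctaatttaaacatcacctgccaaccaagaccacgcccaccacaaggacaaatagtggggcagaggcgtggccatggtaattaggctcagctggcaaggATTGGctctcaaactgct
Scd: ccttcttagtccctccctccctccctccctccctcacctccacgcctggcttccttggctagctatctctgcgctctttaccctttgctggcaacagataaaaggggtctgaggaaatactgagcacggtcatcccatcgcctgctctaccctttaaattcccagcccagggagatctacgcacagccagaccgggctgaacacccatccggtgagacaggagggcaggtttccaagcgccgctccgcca
CCAAT was found on either strand in 5 of the 7 member windows (Acly, Acacb, Thrsp, Pnpla3 and Mlxipl), against 37.5% of the 33469 windows of all genes. GC boxes were found in 4 of 7 (Acly, Me1, Thrsp and Pnpla3), against 33.1% of all windows. The Scd window held neither. The E-box CACGTG was in 0 of 7 windows and in 6.42% of all, and TATAAA in 0 of 7 and 14.2% of all. Longer elements, the carbohydrate response element that ChREBP binds, a pair of sterol regulatory elements that SREBP binds and the LXR element, also matched 0 of 7 windows. The share of all windows that held them was 0.00299% for the carbohydrate response element, 0.126% and 1.12% for the sterol elements and 0.00598% for the LXR element. At such shares most sets of 7 windows would give 0, so this count says nothing particular about the members. The carbohydrate response element holds the E-box letters, and an overlap between other motifs was not looked for. A match describes letters and not a bound site, and a missing match says only that the letters are not in these windows.

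The values are log2 signals per probe set as deposited. They ran from 4.79 to 14.34 over the table, and array medians lay between 6.47 and 6.48. Only 4050 of the 31042 probe sets (13.0%) varied by the SD rule above, and arrays correlated with r between 0.943 and 0.986 over these. The other 26992 (87.0%) were near-constant, bright ones among them. Albumin, at 14.34, had an SD of 6.0e-05 over the 10 livers, and the endothelial marker Kdr, at 9.67, one of 0.00024. What made these values so even was not tested, and they are not read here as stable expression. Different probe sets bind with different strength, so that no level is compared between probe sets below. Arrays give no count depth, and 5 livers per diet limit the precision. In whole tissue, fewer cells of a type and less RNA per cell cannot be told apart. The letter in the array codes differed between the diets throughout, so that diet and this letter cannot be told apart.

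Most lipogenic probe sets varied more between livers than the typical varying probe set. Over the 10 livers the 16 varying member probe sets had a median SD of 0.490 log2 units, against 0.192 for all varying probe sets, and their median rank was at percentile 95.3 of the varying class. Fasn spanned 5.48-fold between its lowest and highest liver, Pnpla3 5.71-fold, Elovl6 3.79-fold, Acly 3.46-fold and Thrsp 3.27-fold. Scd spanned 2.64-fold, Acaca 1.89-fold and Mlxipl 1.59-fold. Most of this range lay within the diets, as the values of each liver show.

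Acly, ATP citrate lyase, cleaves cytosolic citrate to acetyl-CoA. Its log2 signals were 10.72, 10.21, 10.87, 10.26 and 11.84 in the N-group livers (animals 1, 4, 7, 10 and 13), against 11.49, 10.20, 10.05, 11.03 and 10.11 in the C-group livers (animals 2, 5, 8, 11 and 14). N13 and C2 were highest in their diets, and the groups overlapped over most of their range. The diet difference was 0.21 ± 0.40 (SE, limma, N-group minus C-group, 5 livers each).

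Acaca encodes acetyl-CoA carboxylase 1, which makes the malonyl-CoA used for synthesis. Its brighter probe set read 9.06, 9.07, 9.56, 9.06 and 9.89 in the N-group, against 9.97, 9.13, 9.60, 9.45 and 9.07 in the C-group, in the same order of animals as throughout. N13 and C2 again led their diets, and 3 of 5 N-group livers lay together near the bottom of the joint range. The difference was -0.12 ± 0.23 log2 units, and a dimmer probe set of the gene gave -0.00041 ± 0.098. Acacb, the carboxylase of the mitochondrial surface that restrains fatty acid oxidation, stood at 6.28 in all 10 livers, under the array median, and nothing can be said of its change.

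Fasn, fatty acid synthase, builds palmitate from malonyl-CoA. Its log2 signals were 9.43, 8.76, 9.80, 9.62 and 11.22 in the N-group, against 10.71, 9.19, 9.10, 9.57 and 8.92 in the C-group. N13 stood far above the next N-group liver (N7) and C2 far above the next C-group liver (C11), while the other 8 livers intermingled. A further Fasn probe set read 8.80, 7.95, 8.72, 8.40 and 10.37 in the N-group and 9.69, 8.15, 8.16, 8.73 and 7.90 in the C-group, with the same 2 livers on top. The differences between the diets were 0.27 ± 0.50 and 0.33 ± 0.51.

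Elovl6, the elongase that takes palmitate to stearate, read 7.20, 6.90, 7.51, 7.11 and 8.77 in the N-group, against 8.01, 7.26, 7.33, 7.59 and 6.85 in the C-group. N13 was again far above the other N-group livers and C2 the highest of the C-group. The groups overlapped over most of their range, with a difference of 0.089 ± 0.37, and 0.042 ± 0.33 for a dimmer probe set. Scd, the stearoyl-CoA desaturase that makes oleate, was the member with the most negative diet difference. It read 11.84, 12.49, 12.48, 12.08 and 12.91 in the N-group, against 13.24, 12.48, 13.15, 12.52 and 12.83 in the C-group. Its lowest values were N1 and N10, and C2 and C8 were highest, yet N4, N7 and N13 lay within the range of the C-group.

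Me1, the cytosolic malic enzyme, supplies NADPH for synthesis. Its brighter probe set read 8.98, 8.43, 8.70, 9.05 and 9.05 in the N-group and 9.16, 8.42, 9.48, 8.23 and 8.88 in the C-group. Here C8 was the highest liver of all, N13 did not stand out, and the diet difference was 0.0063 ± 0.25. The dimmer Me1 probe set gave 0.20 ± 0.19.

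Thrsp, or Spot 14, is a nuclear protein of lipogenic tissue that responds to thyroid hormone and carbohydrate. It read 11.37, 10.80, 11.61, 11.45 and 12.28 in the N-group, against 12.50, 11.71, 11.67, 11.55 and 11.63 in the C-group. C2 stood apart from 4 C-group livers that lay within a narrow band, N13 led the N-group, and N4 was the lowest of the 10. The 3 Thrsp probe sets gave differences of -0.31 ± 0.29, -0.34 ± 0.29 and -0.32 ± 0.31. Pnpla3, the lipid droplet protein adiponutrin, read 6.23, 6.24, 6.58, 6.54 and 7.28 in the N-group, against 8.55, 6.04, 6.31, 6.75 and 6.12 in the C-group. C2 was by far its highest liver and N13 the next. Its differences were -0.18 ± 0.49 and -0.18 ± 0.44, and its near-constant probe set stood at 6.16 in every liver.

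Mlxipl itself moved over a narrower range. It read 8.41, 8.35, 8.62, 8.27 and 8.86 in the N-group, against 8.59, 8.19, 8.31, 8.38 and 8.35 in the C-group. N13 was the highest liver, followed by N7 and C2, and the groups overlapped. The difference was 0.14 ± 0.12 log2 units.

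**Figure D1:**
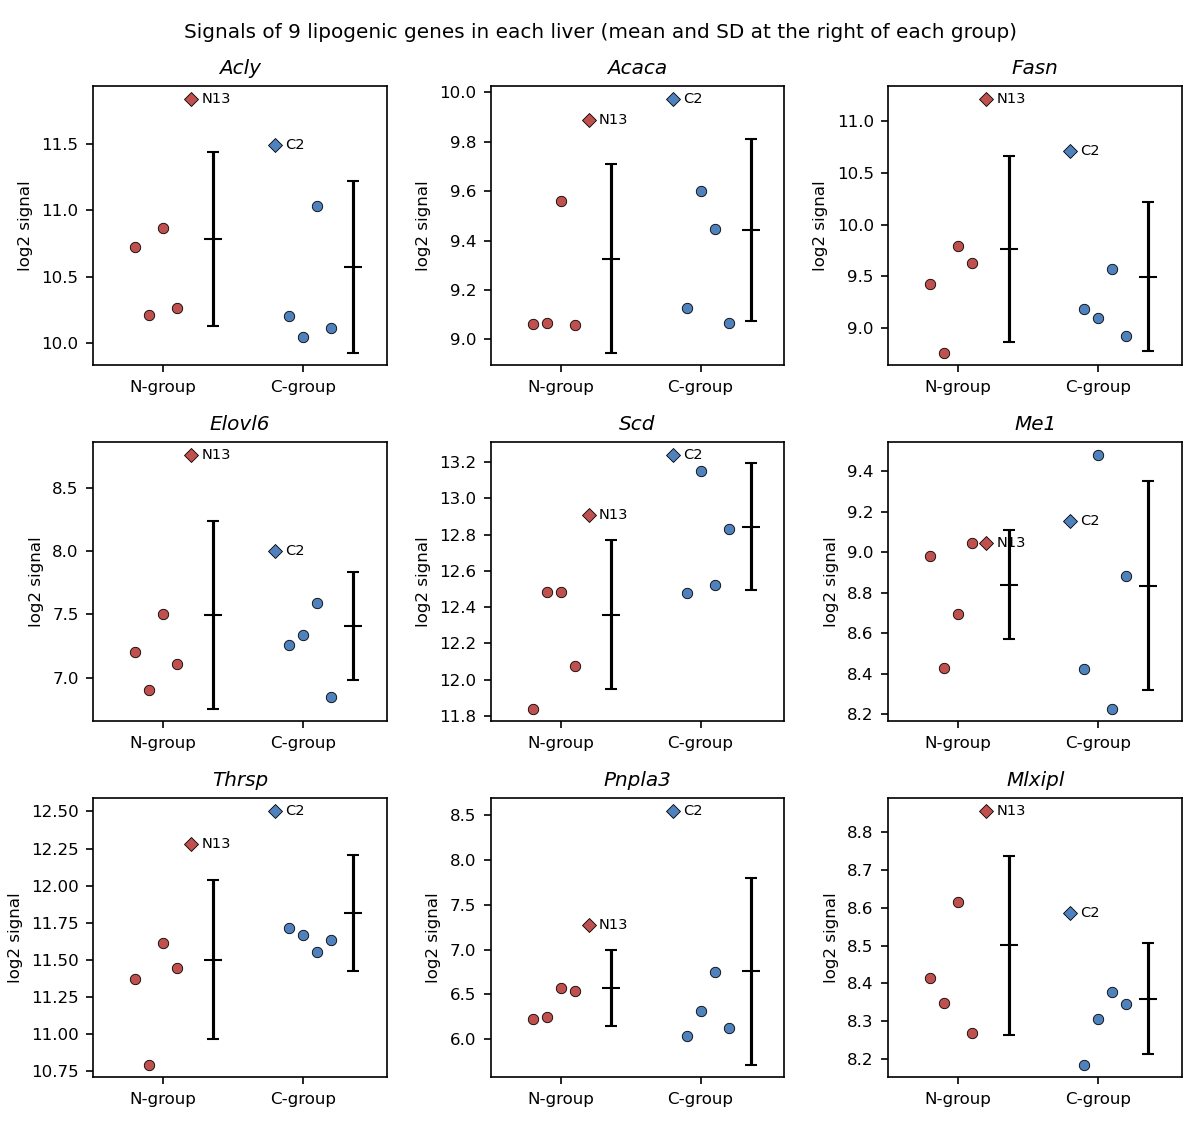
Log2 signal (vertical axis) of the brightest probe set of 9 varying genes in each N-group liver (red, left) and C-group liver (blue, right), with the mean and SD of 5 livers beside each group. Diamonds mark N13 and C2, which are the highest livers of their diets in the 8 genes other than Me1. Axes differ between panels and do not start at 0.

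Of the 18 member probe sets, 0 passed the diet test (limma over all probe sets, Benjamini-Hochberg adjusted p under 0.05), against 0% of all 31042. At an unadjusted p under 0.05 limma gave 0 members as well, the lowest member p being 0.071 for Scd, and 1390 of all probe sets (4.48%). A fit on the 4050 varying probe sets called 13 (0.321%), with 0 members among them, and 521 (12.9%) at an unadjusted p under 0.05. Of the 16 varying member probe sets 8 were higher and 8 lower in the N-group, with a median difference of 0.0029 log2 units, against 0.0079 over all varying probe sets. In 0 of them did the diets not overlap, against 2.99% of varying probe sets and 0.77% of all.

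The intervals say how large a difference these livers could still hold. For Scd, the N-group averaged 12.36 ± 0.41 and the C-group 12.84 ± 0.35 (SD, n = 5 each, log2), a difference of -0.49 ± 0.24 (SE) that corresponds to 0.714-fold, with a 95% interval from 0.492 to 1.04-fold. The adjusted p for Scd was 0.9997 by limma over all probe sets and 0.391 over the varying ones, and exact permutation of the diet labels over the livers gave a two-sided p of 0.103, where 0.00794 is the smallest this design allows. The Fasn interval ran from 0.544 to 2.67-fold, that of Acly from 0.611 to 2.18-fold and that of Pnpla3 from 0.406 to 1.91-fold. For Mlxipl it was narrower, from 0.910 to 1.34-fold.

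**Figure D2:**
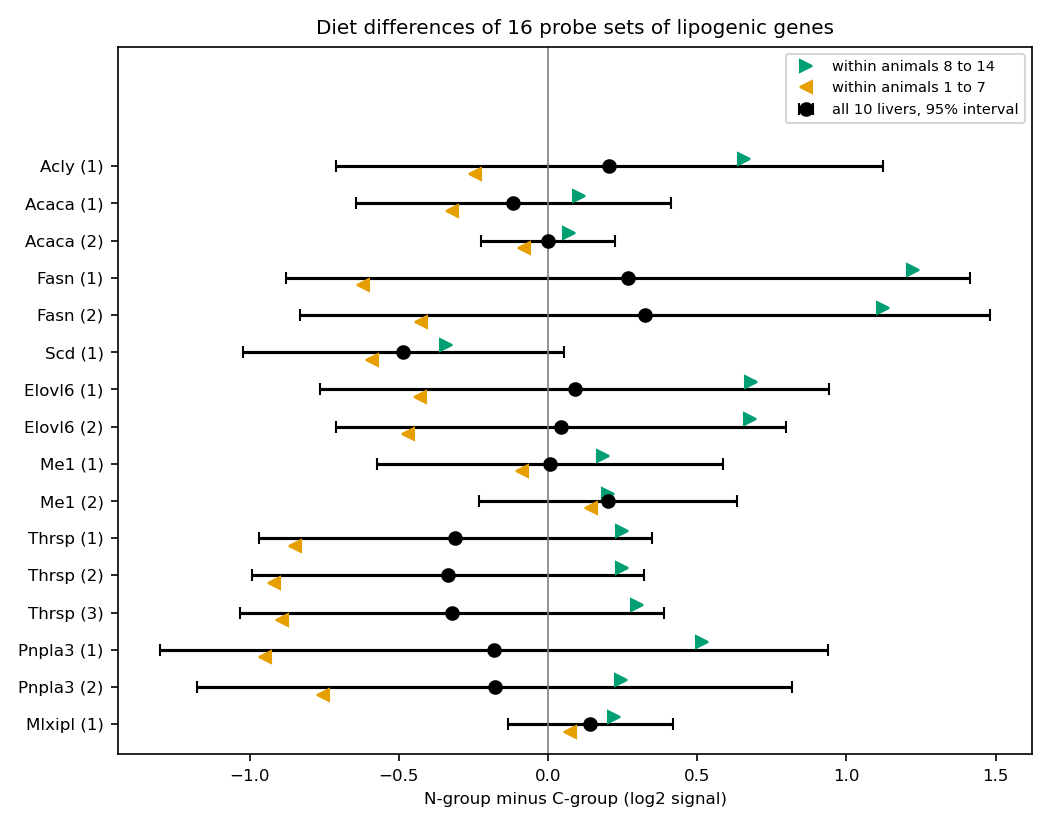
Difference in log2 signal, N-group minus C-group (horizontal axis), for each of the 16 varying member probe sets. Black points give all 10 livers with the 95% interval of the limma fit, and triangles the difference within animals 8 to 14 (green) and within animals 1 to 7 (orange). Every interval includes 0, and 15 of 16 green triangles are above 0 while 14 of 16 orange ones are below it.

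What set livers apart within the diets was shared by most of the genes. N13 was the highest N-group liver in 14 of the 16 varying member probe sets (19.5% of all varying probe sets), and the 2 others were those of Me1. C2 was the highest C-group liver in 15 of 16 (15.6% of all varying), all but 1 probe set of Me1. The 2 livers were the highest of all 10 in 12 of 16 member probe sets, against 1.98% of varying probe sets. These livers were singled out after their values were seen, so the counts are a description. Fasn was 3.51-fold higher in N13 than in the mean of the other N-group livers (on the log2 scale), and 2.86-fold higher in C2 than in the other C-group livers. The corresponding folds were 2.50 and 2.21 for Acly, 3.01 and 1.68 for Elovl6, 1.97 and 1.82 for Thrsp, 1.84 and 4.74 for Pnpla3, 1.63 and 1.59 for Acaca, 1.61 and 1.41 for Scd, and 1.36 and 1.22 for Mlxipl. Over the 16 probe sets the median excess was 0.93 log2 units in N13 and 0.80 in C2, against -0.082 and 0.021 over all varying probe sets. At the other end, N4 was the lowest N-group liver in 9 of 16 and C14 the lowest C-group liver in 7 of 16.

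Adipose tissue also expresses most of these genes, and its markers were read beside them. Of 7 measured adipocyte markers 5 lay under the array median (Adipoq, Lep, Plin1, Pparg and Fabp4), at near-constant values. The log2 signals of all 7, of which 2 varied, summed to 46.12 in N13, between the lowest (45.82) and highest (46.42) of the other 4 N-group livers, and to 46.32 in C2, between 45.77 and 46.49 in the other 4 C-group livers. The 9 hepatocyte markers, summed over their brightest probe sets, came to 119.83 in N13. This was above the other N-group livers (119.35 to 119.67) and above every C-group liver. The sum was 119.61 in C2, where the other C-group livers spanned 119.20 to 119.76. Of the probe sets summed, those of Cyp2e1, Apoa1, Cps1 and Ass1 varied, and that of Apob was near-constant. N13 was the highest N-group liver for Cps1 (13.09) and Ass1 (12.62), not for Apoa1 (12.28), and the lowest of the 10 for Cyp2e1 (13.39). N13 thus had the highest hepatocyte sum of the 10 livers. It also had the lowest endothelial sum, 34.11 against 34.13 to 34.46 in the other N-group livers, with C2 at 34.14 and the other C-group livers at 34.12 to 34.52. Cholangiocyte markers summed to 25.98 in N13, above the other N-group livers (25.73 to 25.93), and to 25.54 in C2, where the others spanned 25.48 to 26.07. Of the probe sets summed, only Stab2 varied among the endothelial markers and only Epcam among the cholangiocyte markers, so each sum follows a single gene. Stab2 read 8.02 in N13 and 8.04 in N10. A varying Lyve1 probe set that was not in the sum read 9.03 in both of these livers. The sums of Kupffer cell, stellate cell and brain markers in N13 and in C2 lay between the lowest and highest of the other livers of their diets. The beta-actin control, whose 3′ minus 5′ signal rises as RNA or cRNA shortens, read 1.41 in N13, near the low end of the other N-group livers (1.40 to 1.66), and 1.51 in C2, where the other C-group livers spanned 1.48 to 1.62. The part of these marker and control values in the raised lipogenic signals of N13 and C2 was not tested.

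**Figure D3:**
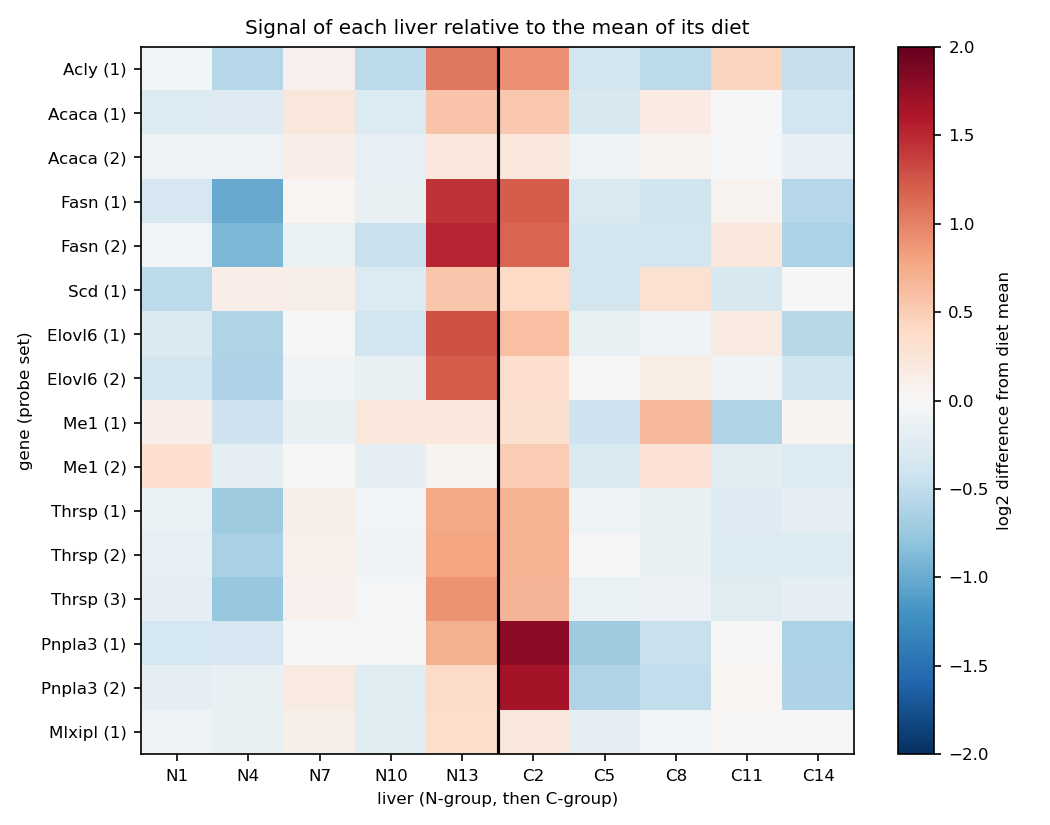
Log2 difference of each liver from the mean of its diet (colour) for the 16 varying member probe sets (rows) in the 5 N-group livers and then the 5 C-group livers (columns). The columns N13 and C2 are raised in nearly all rows, with the strongest colour for Fasn in N13 and for Pnpla3 in C2, and the Me1 rows follow another pattern.

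Animals with higher numbers were compared with those with lower ones, a division chosen because earlier results of these data had shown that it separates many genes. The labels name no batch. Within each diet the array position rose with the animal number, from 2 to 6 in the N-group and from 1 to 5 in the C-group. Animal number and array position can therefore not be told apart within a diet. In a fit with diet, 0 of 18 member probe sets differed between animals 8 to 14 and animals 1 to 7 by limma's adjusted p, against 24.3% of varying and 3.27% of all probe sets. Among the varying members the lowest unadjusted p was 0.396, for an Elovl6 probe set (limma, adjusted 0.586), while the near-constant Acacb probe set had 0.0833 (adjusted 0.243), and 26.7% of all probe sets had one under 0.05. For the lipogenic genes the median of this difference was 0.044 log2 units, against -0.12 over all varying probe sets. The diet differences nevertheless had opposite signs in the 2 sets for most member probe sets. Within animals 8 to 14, which include N13, 15 of 16 varying member probe sets were higher in the N-group, with a median of 0.25, against 1825 of the 4050 varying probe sets and a median of -0.015. Within animals 1 to 7, which include C2, 14 of 16 were lower, with a median of -0.45, against 1998 of the 4050 and a median of 0.0021. The values were 1.22 and -0.62 for Fasn, 0.25 and -0.85 for Thrsp, and 0.51 and -0.95 for Pnpla3, in the same order of sets. Scd was lower in the N-group in both, by -0.34 and -0.59, and Mlxipl higher in both, by 0.22 and 0.074.

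A test of the difference between the sets itself, the diet by set interaction, called 0 of the 18 member probe sets (limma, adjusted p from 0.757 to 0.991), and 0% of all probe sets, of which 6.63% had an unadjusted p under 0.05, with 0 members among them. In the fit on varying probe sets the members' adjusted p ran from 0.393 to 0.986. All 16 interaction coefficients were above 0, with a median of 1.05 log2 units against -0.016 over all varying probe sets. Thrsp had the smallest unadjusted p, 0.0518, at a coefficient of 1.17 ± 0.49. Each set held 2 or 3 livers of a diet. N13 shared its set with N10 alone of the N-group, and C2 shared its set with C5 alone of the C-group. By construction, a high value in N13 or in C2 raises the coefficient, so the 16 coefficients are no separate observations. The part of N13 and C2 in the interaction was not tested.

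Of the 9 varying genes, 7 moved together over the 10 livers, in a pattern that rested largely on N13 and C2, as given below. To see this apart from diet, each liver was set against the mean of its diet, and 1 probe set per gene (the brightest) was correlated over the 10 livers. Of the 36 pairs, 22 were called by an exact permutation test within the diets (14400 permutations, two-sided, Benjamini-Hochberg adjusted p under 0.05 over the 36 pairs). Pearson's r was at or above 0.8 in 18 pairs (50%), against 6.83% of the 3929806 pairs of 2804 varying genes, and its median was 0.794 against 0.215. Among Fasn, Acly, Acaca, Elovl6, Thrsp, Pnpla3 and Mlxipl all 21 pairs were called, with r from 0.719 to 0.954.

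The closest pair was Fasn and Thrsp, with r = 0.954 and rho = 0.745 (exact permutation, p = 0.0041, adjusted 0.0118, n = 10). Fasn and Elovl6 had r = 0.944 and rho = 0.891 (exact permutation, adjusted p 0.00875), and Fasn and Acly r = 0.927 and rho = 0.891 (exact permutation, adjusted p 0.00964). Mlxipl, the regulator among the members, followed Acly with r = 0.890, Acaca with 0.887, Elovl6 with 0.876 and Fasn with 0.854, all 4 called. Scd was called with 1 of 8 partners, Acaca (r = 0.779, rho = 0.733, exact permutation, adjusted p 0.0297). Its r was 0.719 with Mlxipl (exact permutation, adjusted p 0.0560) and 0.539 with Fasn. Me1 was called with 0 of 8 partners by this test and at 0 of 8 by rho, with r from 0.061 with Acly to 0.470 with Thrsp. Probe sets of the same gene gave r of 0.976 for Fasn, 0.986 for Acaca, 0.949 for Elovl6, 0.975 for Pnpla3 and 0.989 to 0.996 for Thrsp, but 0.688 for Me1, whose probe sets thus differed more between themselves.

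These correlations rested largely on N13 and C2. Without both livers 0 of 36 pairs were called, 2 had an unadjusted exact permutation p under 0.05, and 1 pair (2.78%), Fasn and Elovl6 at r = 0.823, reached 0.8, against 10.2% of all pairs of varying genes in the same 8 livers. The median r of the 36 pairs was then 0.375, against 0.280 over all pairs of varying genes. Among the 7 genes that moved together r then ran from 0.213 to 0.823, with a median of 0.616, and these genes had been chosen by their correlations over the 10 livers. With 8 livers the smallest p the test allows is 0.00174, and a lone pair at it could not pass the adjustment over the 36 pairs. Without N13 alone 4 pairs were called, and without C2 alone 7. Leaving out the 2 livers farthest from the median of the first gene of each pair, which were C2 and N13 in most pairs, gave 0 called pairs and 3 at an unadjusted p under 0.05. Rank correlation called 6 pairs, all among those 7 genes. Centring on diet and animal-number set gave r up to 0.963 and a median of 0.786, and called 0 pairs, with 144 permutations and a smallest possible p of 0.00694. A lone pair at that p could not be called either.

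**Figure D4:**
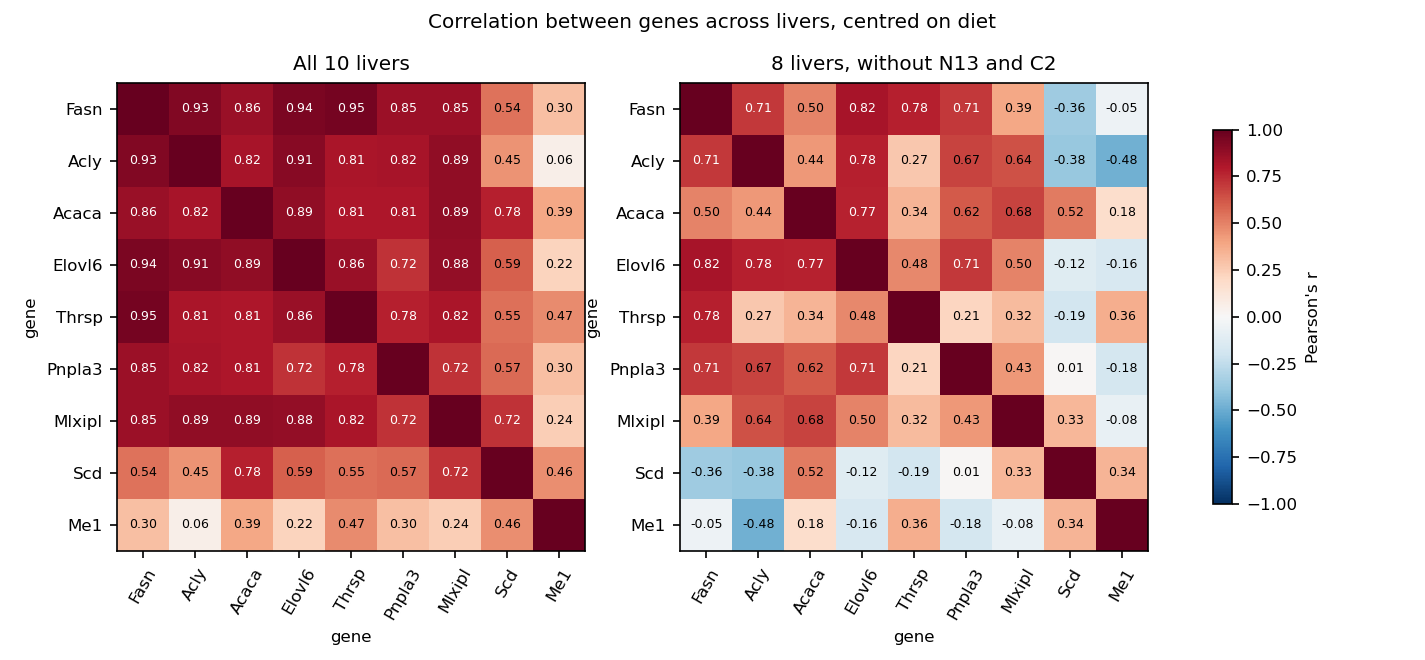
Pearson's r between pairs of 9 genes, centred on diet, over all 10 livers (left) and over the 8 livers without N13 and C2 (right), with colour from -1 to 1. The 7 genes other than Scd and Me1 have r from 0.719 to 0.954 between them on the left, and 0.213 to 0.823 on the right. On the left Scd reaches that range with Acaca (0.779) and Mlxipl (0.719) alone, and Me1 stays at or under 0.470.

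**Figure D5:**
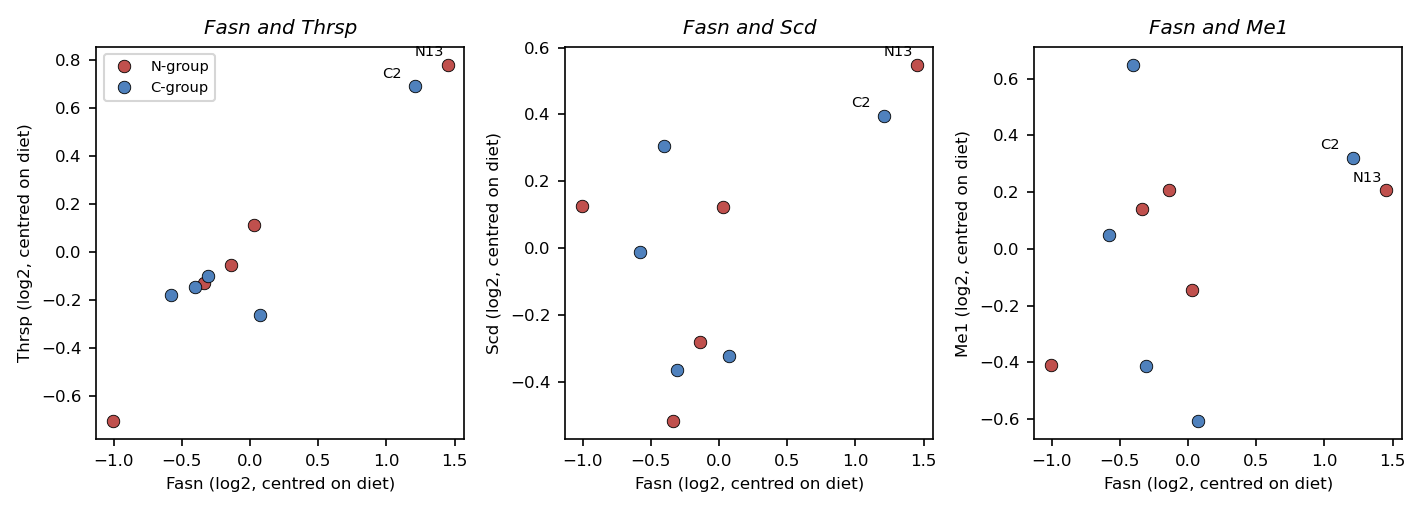
Thrsp, Scd and Me1 (vertical axes) against Fasn (horizontal axis) in each liver, as log2 signals centred on the diet mean, with N-group livers in red and C-group livers in blue. N13 and C2 lie far to the right. Thrsp follows Fasn with r = 0.954, while r is 0.539 for Scd and 0.304 for Me1.

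Genes outside the members were ranked by their correlation with Fasn, Scd and Mlxipl over the same 10 livers, as a description with no test, since all such values share the livers N13 and C2. Of 2803 other varying genes, Thrsp, Elovl6 and Acly were the 3 most like Fasn. The most like genes outside the list were Ppib (r = 0.912), Edem1 (0.904), Nsdhl (0.900), Odad4 (0.898) and Pklr (0.872). Ppib encodes a folding enzyme of the endoplasmic reticulum, Edem1 a factor in the disposal of misfolded glycoproteins, and Nsdhl an enzyme of cholesterol synthesis. Scd was most like Pdk1 (0.875), Elovl5 (0.811), Zfp958l1 (0.799), Mbp (0.787) and Cxcl9 (0.784), of which Pdk1 encodes a kinase that restrains pyruvate dehydrogenase and Elovl5 an elongase of polyunsaturated fatty acids. Fasn ranked at place 90 for Scd. Mlxipl was most like Slc25a15 (0.948), Pklr (0.946), Tspan31 (0.924), Olr59 (0.914) and Hacd3 (0.903). Slc25a15 carries ornithine into mitochondria, Pklr is the liver pyruvate kinase, a textbook target of ChREBP, and Hacd3 is a dehydratase of fatty acid elongation.

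Srebf1 and Pklr were then set against the 9 genes, together with Srebf2, Insig1 and the clock output gene Dbp, as 45 relations chosen after seeing the data. Srebf1, which encodes SREBP-1c, read 9.29, 9.28, 10.13, 9.78 and 10.60 in the N-group, against 10.35, 9.74, 8.997, 9.80 and 9.68 in the C-group. N13 and C2 were its 2 highest livers, as in Fasn, and the diet difference was 0.10 ± 0.30. It correlated with Fasn at r = 0.859 and rho = 0.867 (exact permutation, adjusted p 0.0219 over the 45) and with Acly at r = 0.811 and rho = 0.903 (exact permutation, adjusted p 0.0344), and 2 of its 9 relations were called. Pklr read 9.73, 9.74, 9.88, 9.66 and 10.50 in the N-group and 10.09, 9.61, 9.81, 9.90 and 9.77 in the C-group, also with N13 and C2 on top. Of its 9 relations 6 were called, the closest with Mlxipl (r = 0.946, rho = 0.964, exact permutation, adjusted p 0.0125). Pklr had already ranked at place 2 of 2803 for Mlxipl and at place 8 for Fasn over these same livers. Its calls therefore describe that ranking again and are no separate test. Srebf2, Insig1 and Dbp had 0 called relations each, at unadjusted exact permutation p of 0.271, 0.185 and 0.0793 or more. Without N13 and C2, 0 of the 45 were called, where 0.00174 is the smallest p the exact permutation test allows. A lone relation at that p could not pass the adjustment over the 45. Of the 8 relations called over all livers, the r of Pklr was then 0.879 with Mlxipl, 0.740 with Acaca, 0.687 with Pnpla3, 0.652 with Acly, 0.531 with Elovl6 (0.932 over all livers) and 0.348 with Fasn (0.872 over all livers). That of Srebf1 was 0.630 with Fasn and 0.485 with Acly. Centred on diet and animal-number set, the r of Pklr with Mlxipl was 0.970, and that of Srebf1 was 0.776 with Fasn and 0.792 with Acly. Their exact permutation adjusted p was then 0.195, 0.234 and 0.195. The lowest of the 45 was 0.156, so that none was called. With 144 permutations the smallest possible p is 0.00694, and a lone relation at it could not be called either.

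Genes around the pathway were read from 10 lists, with 53 varying genes in all. By the fit on all probe sets 0 of them were called for diet, and by the fit on varying probe sets 1 was, the clock output gene Dbp, lower in the N-group, against 0.321% of varying probe sets. That fit called 0 probe sets at all without N1, N4, N7 or C14. In 8 of the 53 the diets did not overlap, against 2.99% of varying probe sets. They were Insig2, Prkaa2 and Gpam, and the clock genes Bhlhe40, Bmal1, Dbp, Clock and Nr1d2. N13 and C2 were the 2 highest livers in 5 of the 53, against 1.98% of varying probe sets: Srebf1, Pklr, Slc25a10 (a mitochondrial dicarboxylate carrier), Elovl5 and Dgat2 (an enzyme of triglyceride synthesis).

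In the SREBP axis 5 of 7 genes varied, and all 5 were higher in the N-group by a median of 0.18 log2 units, with 0 called. Insig2, which holds SREBP precursors in the endoplasmic reticulum, read 11.41, 11.68, 11.68, 11.15 and 11.37 in the N-group, against 10.96, 10.97, 10.91, 11.08 and 10.79 in the C-group. Every N-group liver lay above every C-group liver. The difference was 0.52 ± 0.11, with a limma adjusted p of 0.574 over all probe sets and 0.0736 over the varying ones. Srebf2, the SREBP of cholesterol synthesis, differed by 0.18 ± 0.12, and Insig1 by 0.27 ± 0.35.

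Of the LXR list and its partners 2 of 10 genes varied, with a median of -0.066 log2 units, 1 in each direction, namely Nfyb (-0.25 ± 0.14), a subunit of NF-Y, and Sp1 (0.12 ± 0.088). Nr1h3, the liver LXR, and Mlx, the partner of ChREBP, were near-constant, so that nothing can be said of their change. The ChREBP list had 3 genes higher and 3 lower of 6 varying, with a median of -0.018. Slc2a2, the hepatic glucose transporter, differed by -0.20 ± 0.12, Tkfc, a fructose-handling kinase, by 0.20 ± 0.11, Txnip, a glucose-responsive gene, by -0.10 ± 0.098 and Pklr by 0.065 ± 0.16. The insulin and AMPK list had 2 of 5 varying genes higher and 3 lower, with a median of -0.19. Gckr, a regulator of hepatic glucose use, differed by 0.28 ± 0.087, and Prkaa2, a catalytic subunit of AMPK, by -0.21 ± 0.076. In Prkaa2 every N-group liver lay below every C-group liver, with a limma adjusted p of 0.886 over all probe sets and 0.260 over the varying ones.

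Of the carboxylase modulators Mid1ip1, which promotes the polymerisation of acetyl-CoA carboxylase, varied (0.13 ± 0.17). Citrate supply had 3 of 4 varying genes higher, with Slc25a1, the mitochondrial citrate carrier, at 0.0096 ± 0.097 and Acss2, the cytosolic acetyl-CoA synthetase, at 0.27 ± 0.16. The 1 lower gene was Slc25a10, at -0.17 ± 0.15. In NADPH supply 3 of 3 were higher, with Tkt, transketolase, at 0.37 ± 0.11 (limma adjusted p 0.171 over the varying probe sets) and Pgd at 0.18 ± 0.13. Further elongation and desaturation had 4 of 5 higher, with Elovl5 at 0.064 ± 0.062, Hacd3 at 0.089 ± 0.10 and the polyunsaturated fatty acid desaturases Fads1 at 0.11 ± 0.13 and Fads2 at -0.15 ± 0.21. Medians of these lists lay between 0.013 and 0.18 log2 units.

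Esterification, which joins fatty acids to glycerol, had 5 of 8 varying genes higher with a median of 0.059. Gpam, the first acyltransferase of the route, read 7.05, 7.04, 7.12, 6.91 and 7.08 in the N-group, against 6.90, 6.89, 6.68, 6.83 and 6.75 in the C-group, without overlap. The difference was 0.23 ± 0.064, with a limma adjusted p of 0.676 over all probe sets and 0.140 over the varying ones. Acsl3, an acyl-CoA synthetase, differed by 0.46 ± 0.17 and Lpin1, a phosphatidate phosphatase, by 0.13 ± 0.13.

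The clock genes, shown because daily rhythm and feeding time are known to move lipogenic genes, had 5 of 14 varying genes higher and 9 lower, with a median of -0.565 log2 units. Dbp differed by -2.46 ± 0.42 log2 units (limma adjusted p 0.514 over all probe sets and 0.0477 over the varying ones), Bmal1 differed by 1.14 ± 0.20 (0.514 and 0.0502) and Nr1d1 by -0.96 ± 0.28 (0.850 and 0.156). The C-group liver nearest the N-group for Dbp and Bmal1 was C11 (7.28 and 6.90), with C2 at 9.08 and 6.21. The N-group liver nearest the C-group was N10 (7.05 and 6.92), with N13 at 6.94 and 7.27. N13 was the highest N-group liver for Per2 (7.84), Bhlhe40 (7.61) and Hlf (8.68), and not for the other varying clock genes. Its Hlf value lay above every C-group liver (at most 8.66). The part of the clock genes in the raised lipogenic signals of N13 and C2 was not tested. Dbp correlated with Fasn at r = 0.196 and with Thrsp at r = 0.407 over the livers, with exact permutation p of 0.542 and 0.248.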

How the data were processed

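The deposited table holds log2 signals of 10 arrays, 1 per liver. No label or file header names the authors' summary or normalization method, and base 2 is inferred from the range of the deposited values. Of 31099 probe sets, 57 controls were left out. The platform's gene table gave 20826 probe sets 1 gene, 436 several and 9780 none, and symbols were updated by gene identifier for 20758. The N-group was compared with the C-group in R 4.3.3 with limma 3.58.1 (lmFit, then eBayes; two-sided; no covariate) on all 31042 probe sets, with Benjamini-Hochberg adjustment over all of them, and calls at an adjusted p under 0.05. No filter was applied. Each title carries its own animal number, so that p-values reflect variation among rats. Correlations used an exact permutation of livers within diets, in Python 3.11.15 with numpy 2.4.6. Fits and permutations were tested on simulated data. The members and lists were chosen with earlier results of these data known. All member genes are named, with preset regulators of the related lists, the 2 varying genes of each list with the smallest p, and the 5 genes most like Fasn, Scd and Mlxipl. Slc25a10, Dgat2, Per2, Bhlhe40, Hlf, Clock and Nr1d2, and the livers N13, C2, C11 and N10, were singled out after seeing their values. No numbers are shared between the diets, and pairs were only assumed. Alternatives were varying probe sets alone, 1 probe set per gene, a filter on dim probe sets, 2 normalizations, another variance model, blocks and covariates by animal number, and leaving out livers. Listed genes without a probe set of their own were not analysed here.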

Additional observations from a re-analysis of the deposited data

Results flagged for a closer look

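Each diet group of 5 livers was screened for an end value separated from the next one by more than 0.71 of the whole range (Dixon's ratio at the 95% level). Of 32 groups, 16 probe sets in 2 diets, 5 were above it, and chance gives about 1 in 20, or 1.6. All 5 were C2, high among the C-group livers. Thrsp had ratios of 0.8295, 0.7146 and 0.8746 in its 3 probe sets, and Pnpla3 0.7159 and 0.7150 in 2. Probe sets of 1 gene read the same RNA, so these are 2 genes and 1 liver. N13 did not reach the ratio in any probe set.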

How the results depend on the processing

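The count of member probe sets called for diet was 0 under each of the alternatives run, and 0 for the animal-number set and the interaction under each of theirs. The count over all probe sets was 0, and became 13 on varying probe sets alone, 255 with arrays centred on the median of varying probe sets, and 22 on varying probe sets after blocking on animal-number set. Leaving out 1 liver gave 0 to 10 over all probe sets (10 without C11) and 0 to 84 on varying ones (84 without C11, 21 without N10, 18 without C2, 8 without N13, 3 without C5, 2 without C8, and 0 without N1, N4, N7 or C14). The groups share no animal numbers, and neighbouring numbers assumed as pairs and used as a replicate block gave 0 calls. The 22 called pairs became 6 by Spearman's rho, 0 when centred on diet and animal-number set, 0 without the 2 farthest livers, 0 without N13 and C2, and 4 to 24 without 1 liver. The 8 called regulator relations became 0 without N13 and C2. In the correlations centred on diet and animal-number set or without 2 livers, a lone pair or relation could not pass the adjustment. The diet difference of a varying member changed sign in 20 of 160 fits without 1 liver, in 13 of 32 within an animal-number set, and in 4 of 90 under other settings that changed its value. Within animals 8 to 14 Acaca gave 0.10 and 0.071, Thrsp 0.25, 0.25 and 0.30, and Pnpla3 0.51 and 0.24. Within animals 1 to 7 Acly gave -0.24, Fasn -0.62 and -0.43, Elovl6 -0.43 and -0.47, and Me1 -0.086. Without N13 and C2 Elovl6 gave -0.079 and -0.18, and Pnpla3 0.090 and 0.14. Leaving out 1 liver gave Acly -0.059 to 0.43, Acaca -0.26 to 0.017 and -0.056 to 0.055, Fasn -0.094 to 0.57 and -0.055 to 0.62, Elovl6 -0.23 to 0.24 and -0.26 to 0.20, Me1 -0.15 to 0.17, Pnpla3 -0.36 to 0.27 and -0.33 to 0.24, Scd -0.62 to -0.36, Mlxipl 0.052 (without N13) to 0.20, the dimmer Me1 probe set 0.12 (without N1) to 0.33 (without C2), and Thrsp -0.51 to -0.13, -0.53 to -0.16 and -0.55 to -0.13 (the most negative without N13, the others without N4, C2 and N4). Except where an alternative used fewer livers or features, the cause was not tested. The varying-only fits that leave out livers or add the block, the fits and correlations without N13 and C2 or the 2 farthest livers, and the regulator relations were added after seeing the data. Near-constant probe sets carry no measurable difference.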
